A study of Mus musculus with 6 samples.

Results

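The 10 imprinted growth genes H19, Igf2, Igf2r, Cdkn1c, Meg3, Dlk1, Grb10, Peg3, Plagl1 and Gnas were described across 6 RNA-seq libraries of mouse double negative 3 (DN3) thymocytes. They were picked by name, with their values in these libraries already known, and all 10 were found among the 26332 genes of the count table. The series compared 2 libraries from mice with a knockout of Tcf7 (KO 1 from a male, KO 2 from a female), the gene of the T-cell transcription factor TCF-1, with 4 libraries from wild-type mice (WT 1 to WT 3 from females, WT 4 from a male). All mice were C57BL/6, each library came from its own mouse, and the labels give neither the ages nor which part of Tcf7 was removed. The sort kept CD25+ CD44- thymocytes without surface T-cell receptor, CD8 or natural killer T-cell markers.

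Imprinted genes are expressed mainly from the allele of 1 parent, an arrangement set by DNA methylation laid down in the germ line. In the mouse, Igf2 (a fetal growth factor) is read from the paternal allele and the neighbouring noncoding RNA gene H19 from the maternal allele, under a shared control region and shared enhancers. Igf2r, the receptor that takes IGF2 to lysosomes, Grb10, an adaptor that restrains insulin and IGF receptor signalling, and Cdkn1c, an inhibitor of cyclin-dependent kinases, limit growth. H19 is abundant in fetal tissues and is known to be kept in some adult stem cells. The counts pool both alleles, so imprinting itself was not measured.

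H19 is also the host transcript of a microRNA, whose 2 mature arms are shown because they are cut from the transcript with the largest loss in KO among the 10 genes. The capitals mark the seed, bases 2 to 8, and the sequences are those of RefSeq on build GRCm38.p6 (chromosome 7, minus strand).
miR-675-5p: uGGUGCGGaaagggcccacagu
miR-675-3p: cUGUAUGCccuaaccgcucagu
The hairpin gene Mir675 had 0 counts in all 6 libraries, a count that says nothing of the mature microRNA, because the kit copies polyadenylated RNA.

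Promoter windows of the 250 bases before a RefSeq start were available for 8 of the 10 genes, 16 windows in all on GRCm38.p6. They were searched for the core of the TCF/LEF motif, CTTTGA or CTTTGT, on both strands. It was in 2 of the 16 windows (12.5%), against 9075 of 32851 windows of the same length over all genes (27.6%). A match is only a match of letters, and a window without one says nothing about binding by TCF-1. The windows of 3 genes whose RNA level differed between the genotypes are shown, with the motif in capitals where there is one. The first is the most upstream Igf2 window (chr7:142666817-142667066, minus strand), which holds TCAAAG, the reverse complement of CTTTGA, starting 207 bases before the transcript start, and 1 CpG.
Igf2: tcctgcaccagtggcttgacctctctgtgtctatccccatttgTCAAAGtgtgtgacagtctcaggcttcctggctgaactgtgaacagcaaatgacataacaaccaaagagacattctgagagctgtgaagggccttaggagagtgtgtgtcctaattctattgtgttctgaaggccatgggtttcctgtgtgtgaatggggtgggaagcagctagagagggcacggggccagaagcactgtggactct
The Igf2r window (chr17:12769707-12769956, minus strand) has 27 CpG sites and the Dlk1 window (chr12:109452573-109452822, plus strand) has 8, and neither holds the motif.
Igf2r: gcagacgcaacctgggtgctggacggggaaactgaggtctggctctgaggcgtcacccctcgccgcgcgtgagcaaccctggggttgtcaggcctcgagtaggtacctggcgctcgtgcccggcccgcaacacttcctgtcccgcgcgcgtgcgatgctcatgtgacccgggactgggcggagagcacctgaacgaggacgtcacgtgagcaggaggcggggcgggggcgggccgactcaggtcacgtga
Dlk1: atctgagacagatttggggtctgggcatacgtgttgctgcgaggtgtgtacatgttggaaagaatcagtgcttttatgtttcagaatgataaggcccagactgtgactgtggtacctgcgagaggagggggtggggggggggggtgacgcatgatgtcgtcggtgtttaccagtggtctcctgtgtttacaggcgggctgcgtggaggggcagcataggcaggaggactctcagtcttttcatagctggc
The other window with the motif was at Meg3, where it starts 52 bases before the transcript start.

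Depth was 19589938 counts in KO 1 and 13673860 in KO 2, against 23711513 to 41666797 in WT. Genes with a count numbered 13294 and 14384 in KO, against 15788 to 16013 in WT, and mitochondrial genes took 0.893% and 1.78% of counts in KO, against 2.61% to 2.92% in WT; the part of depth and RNA quality in the results was not tested. A count of 3 corresponded to 0.153 and 0.219 CPM (counts scaled to library size) in KO 1 and KO 2, and to 0.0720 to 0.127 CPM in WT. Tcf7 itself had 1133 and 1022 CPM in KO, against 2326, 2270, 2266 and 2094 CPM in WT, so its RNA was reduced but not absent. The DN3 markers were present in every library, with summed levels of 7893 and 8070 CPM in KO and 10189 to 10965 CPM in WT. None of the 9 was called higher and 4 were called lower, against 14.1% higher and 16.5% lower over all genes tested. 3 libraries stood apart. Between KO 1 and KO 2 the chi-square statistic per degree of freedom over genes was 104, against 3.37 to 5.11 among WT 1 to WT 3 and 15.9 to 23.1 between WT 4 and the other WT libraries. KO 2 had B-cell transcripts, with 8 markers summing to 22.004 CPM in KO 1 and 205 CPM in KO 2, against 42.9 to 51.3 CPM in WT. Ms4a1 and Pax5 had 483 and 101 counts in KO 2 and 0 in the other libraries. Markers of double positive thymocytes summed to 228 and 1800 CPM in KO, against 7.17 to 20.2 CPM in WT. Since KO 1 and WT 4 are the only males, sex and library cannot be told apart for them.

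Across all genes, 4076 of the 13294 that passed the low-count filter were called different between KO and WT (30.7%), 1878 of them higher in KO (14.1%) and 2198 lower (16.5%). A call means a Benjamini-Hochberg adjusted p below 0.05 in edgeR's quasi-likelihood test with sex in the model. Of the 10 imprinted growth genes, 7 passed the filter. Among these 7, 3 were called higher (Igf2r, Dlk1 and Gnas), 2 lower (H19 and Igf2) and 2 were not called (Cdkn1c and Grb10). Both KO libraries lay above the WT range for 4 of the 7, against 22.9% of all genes tested, and below it for 2, against 28.6% (51.5% in either direction). The genotype difference differed between males and females for 4 of the 7 (H19, Igf2r, Dlk1 and Grb10), against 54.7% of all genes tested. Each sex holds a single KO library, so a difference by sex cannot be told apart from a difference between single mice. The median log2 fold change, KO over WT, was 1.02 over these 7 genes and -0.04 over all genes tested. The genes were chosen with this contrast known, so these counts and the values that follow describe them and test nothing.

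**Figure D1:**
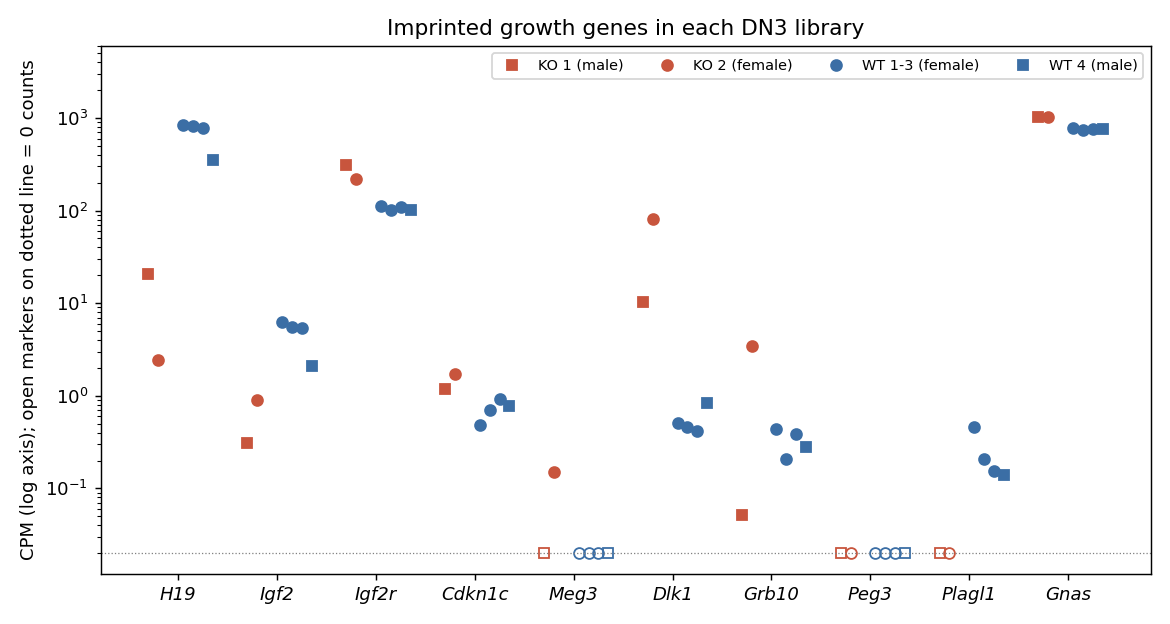
CPM of each imprinted growth gene (x axis) in each library, on a log axis; squares are males and circles females, and open markers on the dotted line are libraries with 0 counts. H19 and Igf2 lay below the WT range in both KO libraries, Igf2r, Dlk1 and Gnas lay above it, and the KO libraries fell on opposite sides of the WT range for Grb10.

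H19 (Entrez 14955, GRCm38.p6 chromosome 7, 142575530 to 142578146) showed the largest loss of the 10 genes. It had 20.7 CPM in KO 1 and 2.46 CPM in KO 2, against 843, 812, 774 and 352 CPM in WT 1 to WT 4 (WT 695 ± 230, SD, n = 4). In reads these were 404 and 33 counts in KO, against 10024 to 34918 counts in WT. Both KO libraries were far below every WT library, and WT 4 was itself 2.30-fold lower than the mean of the WT females. The fitted log2 fold change was -5.97 (SE 1.09), a 62.9-fold lower level in KO. Within females KO 2 was 329-fold below the WT mean, and within males KO 1 was 17.0-fold below WT 4. The fitted genotype difference in males minus that in females was 4.27 on the log2 scale. Without WT 1, WT 2 or WT 3 the log2 fold change was -5.99, -6.01 or -6.03, and each time the gene just missed the threshold. With sex in the model, leaving out WT 4 left KO 2 against the WT females, with a log2 fold change of -8.36. Leaving out KO 2 left KO 1 against WT 4, with -4.10. Each of these runs rests on a single KO library and holds no spread between KO mice. Without WT 4 and the sex term, which keeps both KO libraries, it was -6.09 (SE 0.959). On the per-length scale (RPKM), H19 ranked 9058 of 26332 genes by its KO mean and 184 by its WT mean.

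Igf2 (Entrez 16002, chromosome 7, 142650768 to 142666816), which lies 82.0 kb from H19 between gene centres, was a low transcript in these cells. It had 0.307 and 0.896 CPM in KO, against 6.30, 5.47, 5.37 and 2.07 CPM in WT, from 6 and 12 counts in KO and 59 to 261 counts in WT. Both KO libraries were below all WT libraries, and as for H19 the lowest WT library was WT 4. The log2 fold change was -2.69 (SE 0.282), or 6.47-fold lower in KO. The difference was of like size within females (log2 -2.67) and within males (-2.76), with a fitted difference of -0.06 between them. With limma-voom weights per genotype, where the KO libraries carry their own spread, Igf2 was no longer called (log2 -2.64, SE 1.51). Igf2os, the antisense transcript at Igf2, named here after its values were seen, had 0.358 and 0.448 CPM in KO and 0.422 to 1.61 CPM in WT, and was not called. The kit does not mark strand, so reads in the overlap of Igf2 and Igf2os cannot be told apart.

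Because RPKM corrects for gene length, it allows the level of H19 to be set against that of Igf2 in the same library. The ratio of H19 to Igf2 RPKM was 109 in KO 1 and 4.45 in KO 2, against 217, 240, 234 and 275 in WT 1 to WT 4. Both KO ratios lay below the WT range, but they rest on 6 Igf2 counts in KO 1 and 12 in KO 2. The counting error of the ratio was not computed, so the place of KO 1 is uncertain. WT 4, in which both genes were low, had the highest ratio of the WT libraries.

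**Figure D2:**
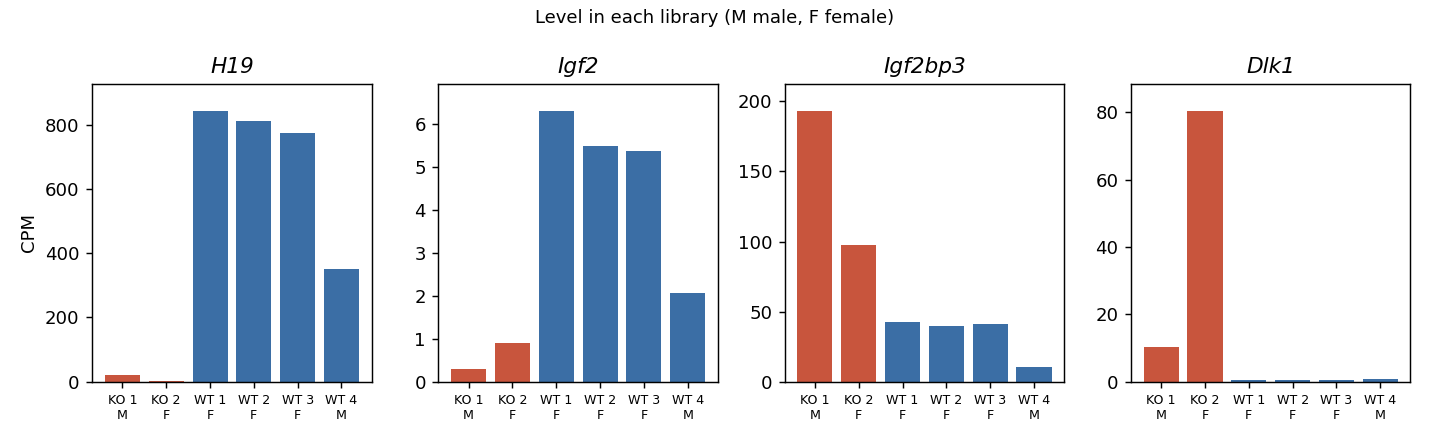
CPM (y axis, linear, a separate scale for each gene) of H19, Igf2, Igf2bp3 and Dlk1 in each library; M and F give the sex. H19 and Igf2 were low in both KO libraries and lower in WT 4 than in WT 1 to WT 3, Igf2bp3 was high in both KO libraries and lowest in WT 4, and Dlk1 was higher in KO 2 than in KO 1.

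Igf2r (Entrez 16004, chromosome 17, 12682406 to 12769706) was higher in both KO libraries. It had 311 and 217 CPM in KO, against 112, 101, 109 and 101 CPM in WT (106 ± 5.75, SD, n = 4). The groups did not overlap, and the WT libraries, WT 4 included, were close to each other. The log2 fold change was 1.26 (SE 0.149), a 2.40-fold higher level in KO, with 1.01 within females and 1.63 within males. The call was kept under every alternative that held both KO libraries in the contrast. Among the runs that left out a library, the log2 fold change was largest at 1.61 without KO 2. It was smallest at 1.01 without WT 4. Both of these runs rest on a single KO library and hold no spread between KO mice. Airn, the paternal noncoding RNA that overlaps Igf2r on the opposite strand and silences it in cis, had 8.34 and 4.33 CPM in KO, against 5.48 to 5.75 CPM in WT. It was not called (log2 0.04, SE 0.285) and was named after its values were seen; reads in the overlap cannot be assigned to a strand.

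Grb10 (Entrez 14783, chromosome 11, 11930499 to 12037428) had 0.0512 CPM in KO 1 and 3.43 CPM in KO 2, against 0.435, 0.209, 0.383 and 0.281 CPM in WT. In reads this was 1 and 46 counts in KO and 5 to 18 counts in WT. KO 1 was below the WT range and KO 2 above it, so the groups overlapped and the gene was not called (log2 2.11, SE 1.03). Without KO 2 the direction turned, with a log2 fold change of -2.37. Leaving out either KO 1 or WT 4 left the same contrast, KO 2 against the WT females (log2 3.27 and 3.25). Without WT 4 and the sex term, which keeps both KO libraries, Grb10 was not called (log2 2.28, SE 1.36). KO 2 is also the library with B-cell transcripts (205 CPM over the 8 markers, of which Ms4a1 and Pax5 were at 0 in KO 1 and WT), and their part in the Grb10 level was not tested.

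Cdkn1c (Entrez 12577, chromosome 7, 143458339 to 143461059) was a low transcript, with 23 counts in each KO library and 17 to 24 counts in WT. Scaled to depth it had 1.18 and 1.72 CPM in KO, against 0.483, 0.710, 0.920 and 0.773 CPM in WT. Both KO values were above the WT range, yet the gene was not called (log2 1.02, SE 0.437). With either KO 1 or WT 4 left out, the contrast was again KO 2 against the WT females (log2 1.34 and 1.33). Without WT 4 and the sex term, Cdkn1c was not called (log2 1.04, SE 0.471).

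Dlk1 (Entrez 13386, chromosome 12, 109452485 to 109463336), a membrane protein related to Notch ligands and a marker of progenitor cells, was the largest gain in the group. It had 10.2 CPM in KO 1 and 80.5 CPM in KO 2, against 0.507, 0.460, 0.422 and 0.843 CPM in WT. In reads these were 199 and 1078 counts in KO, against 11 to 24 counts in WT. All WT libraries were near the floor, both KO libraries were far above it, and the KO libraries differed widely from each other. The log2 fold change was 6.19 (SE 0.786), or 72.8-fold higher in KO, and it was 7.42 without KO 1 and 3.57 without KO 2. Dlk1 was highest in KO 2, the library with most B-cell and double positive transcripts (205 and 1800 CPM). With sex in the model, leaving out KO 2 left KO 1 against WT 4. KO 1 also had more double positive transcripts than WT (228 CPM, against 7.17 to 20.2 CPM). The part of B cells and double positive cells in the Dlk1 level was not tested.

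Meg3 (Entrez 17263), the maternal noncoding RNA of the Dlk1 cluster, was at or near 0 in every library. It had 0 and 2 counts in KO and 0 counts in every WT library, at or under the floor in both groups, so no fold is given. Of 5 other genes of that cluster, Rian and Mirg, both named after their values were seen, had 1 and 4 counts in KO and 0 in WT. Begain, at the edge of the cluster, was called lower, with 7.68 and 5.90 CPM in KO, against 18.1, 19.7, 17.2 and 23.4 CPM in WT (log2 -1.62, SE 0.136, adjusted p = 0.00136 by edgeR's quasi-likelihood test with Benjamini-Hochberg adjustment).

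Peg3 (Entrez 18616), the gene of a zinc finger protein read from the paternal allele, had 0 counts in all 6 libraries. Its cluster was as silent, with 0 counts for each of the 3 matched neighbours (Usp29, Zim1 and Zim3). Plagl1 (Entrez 22634), the gene of a zinc finger regulator of other imprinted genes, had 0 counts in both KO libraries, against 19, 5, 4 and 4 counts in WT. Taking 3 counts over the KO group as the floor, it was at least 2.93-fold lower in KO, on counting error only. It did not pass the low-count filter. The bound pools the WT counts and leans on WT 1. By library, WT had 0.459, 0.209, 0.153 and 0.141 CPM, while 3 counts stood at 0.153 CPM in KO 1 and 0.219 CPM in KO 2. WT 2 to WT 4 were thus near what the KO libraries could show.

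Gnas (Entrez 14683, chromosome 2, 174284320 to 174346744) codes for the stimulatory G protein α subunit, which couples receptors to adenylyl cyclase, and was the most abundant of the 10 genes in KO. It had 1013 and 1026 CPM in KO, against 777, 747, 751 and 757 CPM in WT (758 ± 13.1, SD, n = 4). The libraries of each genotype agreed closely, and the groups did not overlap. The log2 fold change was 0.43 (SE 0.058), a 1.35-fold higher level in KO, with 0.44 within females and 0.42 within males. The locus has several promoters, whose transcripts the gene counts pool. Gnasas1, the antisense transcript of the locus, was not called and was named after its values were seen; it had 3.84 and 1.57 CPM in KO and 0.422 to 0.958 CPM in WT.

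Set on the per-length scale, the genes covered a wide range. In KO the mean RPKM was 168 for Gnas, 29.6 for Igf2r, 9.42 for Dlk1, 4.42 for H19 and under 1 for the other 6 genes. In WT it was 266 for H19, 125 for Gnas, 11.9 for Igf2r, 1.13 for Igf2 and under 1 for the other 6. H19 thus stood above Gnas in WT 1 to WT 4 and below Gnas, Igf2r and Dlk1 in the KO mean. In KO 1 alone H19 was at 7.91 RPKM and Dlk1 at 2.12 RPKM, so the order of these 2 genes was not shared by the KO libraries.

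The neighbourhood of H19 was examined next, since Igf2 and Cdkn1c lie within 1000 kb of it on chromosome 7. Within 1000 kb of H19, 47 other genes were annotated and 17 passed the filter; 7 were called higher, 2 lower (Igf2 and Ctsd) and 8 were not called, against 14.1% higher and 16.5% lower over all genes tested, with a median log2 fold change of 0.25. Apart from Igf2, Ctsd was the only gene in the window called lower. On the same side of H19 as Ctsd, the genes Lsp1, Mob2 and Prr33 were called higher. Mob2 (log2 0.34, SE 0.076) and Prr33 (log2 1.32, SE 0.343) were named after their values were seen. Ctsd (cathepsin D) had 290 and 356 CPM in KO, against 447 to 470 CPM in WT (log2 -0.47, SE 0.081, adjusted p = 0.0119 by edgeR's quasi-likelihood test). Lsp1, a leukocyte actin-binding protein, had 94.8 and 91.0 CPM in KO, against 57.3 to 71.3 CPM in WT (log2 0.56, SE 0.104, adjusted p = 0.0157 by the same edgeR test). Ctsd was not called when WT 1, WT 2 or WT 3 was left out, and Lsp1 was not called without WT 2 or WT 3. Mrpl23, the tested gene nearest to H19 and named after its values were seen, was not called (log2 -0.997, SE 0.401).

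**Figure D3:**
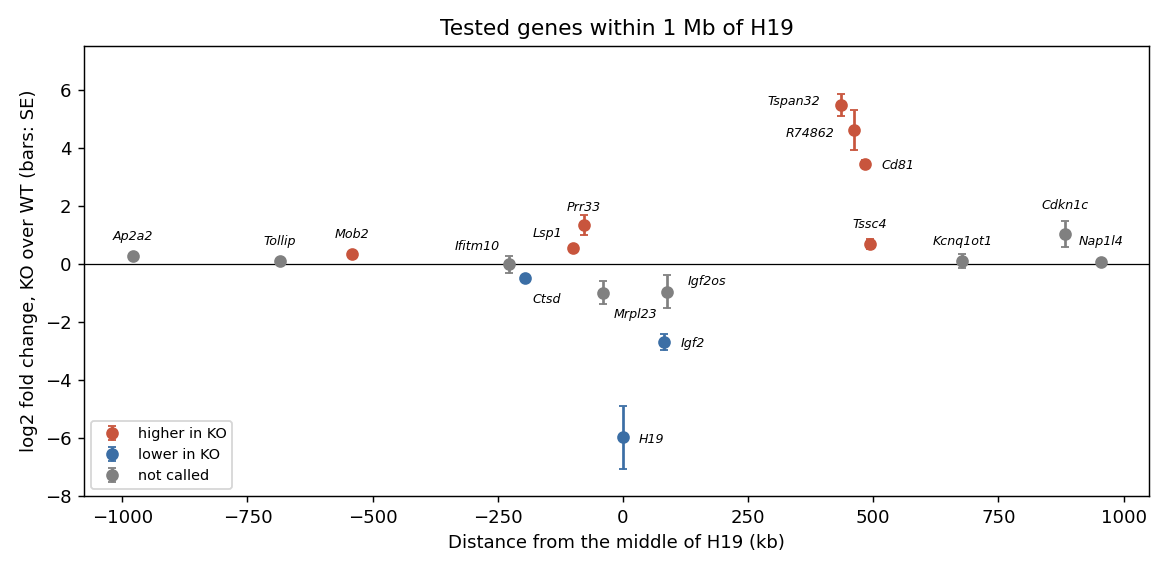
Log2 fold change, KO over WT (y axis, bars are SE), of every tested gene within 1000 kb of H19, by the distance of its centre from that of H19 in kb (x axis). H19 and Igf2 were the only genes below -2, and Tspan32, R74862 and Cd81, some 435 to 484 kb away, were the only ones above 2.

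The other listed imprinted genes of this stretch of chromosome 7 run from Ins2, next to Igf2, past Cdkn1c to Osbpl5. Of these 12 genes 6 were tested, 4 were called higher and 2 were not called, against 14.1% called higher and 16.5% called lower over all genes tested. Tspan32, a tetraspanin of blood cells, had 11.2 and 28.1 CPM in KO, against 0.362, 0.794, 0.422 and 0.387 CPM in WT (log2 5.46, SE 0.375, adjusted p = 8.01e-04 by edgeR's quasi-likelihood test with Benjamini-Hochberg adjustment). Cd81, a tetraspanin of lymphocytes, had 63.9 and 59.3 CPM in KO, against 6.57, 6.52, 6.25 and 4.60 CPM in WT (log2 3.44, SE 0.154, adjusted p = 2.97e-04 by the same edgeR test). For both genes the KO libraries were far above all WT libraries. Osbpl5, a lipid transfer protein, and Tssc4, a protein of spliceosome assembly, were called higher by less (log2 1.16, SE 0.248, and 0.68, SE 0.159), and neither was called when WT 1, WT 2 or WT 3 was left out. Without KO 2 the log2 fold change was 0.51 for Osbpl5 and 1.01 for Tssc4, and without KO 1 it was 1.56 for Osbpl5. Kcnq1ot1, the noncoding RNA that silences its neighbours on the paternal allele, named after its values were seen, had 11.9 and 18.5 CPM in KO, against 11.6 to 18.6 CPM in WT, and was not called (log2 0.11, SE 0.234).

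Other imprinted genes of the mouse, listed by cluster, gave no common direction. Of 67 matched, 35 were tested, 8 called higher, 12 lower and 15 not called (57.1% called, against 30.7% of all genes tested), with a median log2 fold change of 0.04, and 18 had 0 counts throughout. The number called fell to 8 without WT 1, 9 without WT 2 or WT 3 and 4 with limma-voom weights per genotype. Slc22a3, an organic cation transporter of the Igf2r cluster, rose with Igf2r to 92.3 and 74.9 CPM in KO, against 33.3, 32.7, 30.9 and 36.0 CPM in WT (log2 1.27, SE 0.080, adjusted p = 6.05e-04 by edgeR's quasi-likelihood test with Benjamini-Hochberg adjustment). Around Gnas and elsewhere on chromosome 2, none of 7 tested genes was called higher and 4 were called lower, against 14.1% higher and 16.5% lower over all genes tested. Among these, Blcap had 13.05 and 14.9 CPM in KO, against 25.6 to 32.5 CPM in WT (log2 -0.97, SE 0.141), and H13, a signal peptide peptidase, was lower by a smaller amount (log2 -0.36, SE 0.096).

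The Snrpn cluster and other imprinted genes of chromosome 7 had 3 genes called higher and 2 lower of 6 tested. Over all genes tested, 14.1% were called higher and 16.5% lower. Atp10a, a lipid flippase (log2 0.64, SE 0.085), and Inpp5f, an inositol phosphatase (0.48, SE 0.094), were higher in KO. Peg12 and Snhg14, low transcripts named after their values were seen, moved in opposite directions. Peg12 had 0 counts in both KO libraries and 192 counts over WT, at least 17.6-fold lower in KO against 3 counts over the group. Snhg14 had 64 counts over KO and 3 over WT, a ratio of 77.6 (exact 95% interval 25.4 to 386, counting error only). On chromosome 6, 3 of 6 tested genes were called lower, against 16.5% of all genes tested. Among them were Copg2, a coat protein subunit (log2 -0.53, SE 0.097), and Pon3, a lactonase (-1.77, SE 0.320). In the remaining group, Phactr2, a regulator of protein phosphatase 1 and actin, had 0 and 0.597 CPM in KO, against 11.1, 12.3, 10.3 and 10.2 CPM in WT (log2 -5.31, SE 0.802), and Impact, a translation regulator, was lower by less (log2 -0.53, SE 0.111). H13, Inpp5f, Copg2, Pon3 and Impact were not called when WT 1, WT 2 or WT 3 was left out, with log2 fold changes between -1.82 and 0.50. The KO libraries counted unequally for Phactr2 (-4.20 without KO 1), Pon3 (-2.41 without KO 2 and -1.34 without KO 1) and H13 (-0.59 without KO 2 and -0.20 without KO 1).

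**Figure D4:**
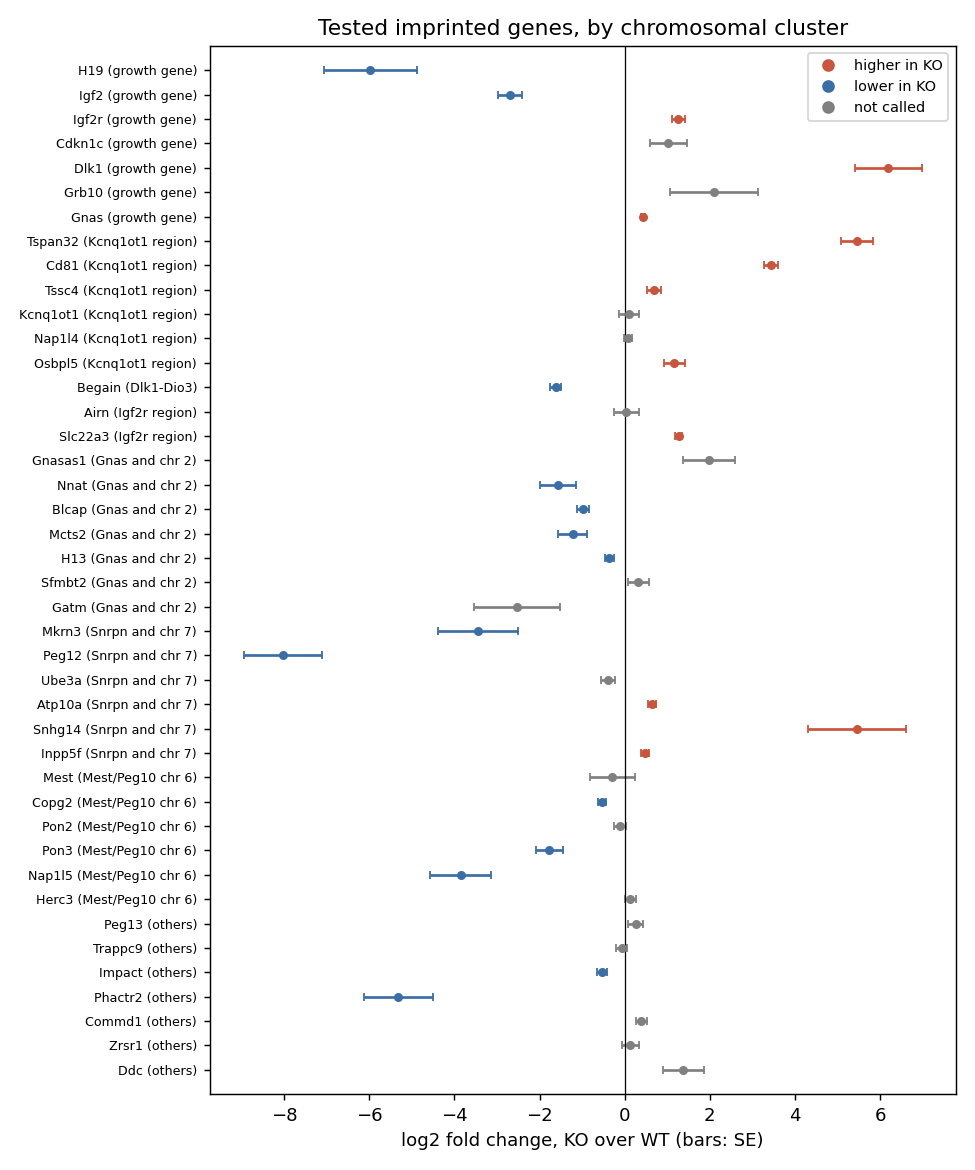
Log2 fold change, KO over WT (x axis, bars are SE), of the 7 tested growth genes and the 35 other tested imprinted genes, grouped by cluster from top to bottom; the colour gives the call. Of the groups of other imprinted genes, only the Snrpn and chromosome 7 group held both genes called higher and genes called lower, as for Atp10a and Peg12. In every other such group with calls, the called genes went the same way.

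The IGF axis beyond these genes was read from a list of 25 ligands, binding proteins, receptors and signalling proteins, of which 15 were tested, 5 were called higher, 1 lower and 9 not called (40% called, against 30.7% of all genes tested); the median log2 fold change was 0.05. Igfbp4, a secreted protein that binds IGFs and holds them from their receptor, rose to 223 and 65.8 CPM in KO, against 5.82, 5.85, 6.02 and 11.5 CPM in WT. Its log2 fold change was 3.81 (SE 0.185, adjusted p = 3.24e-04 by edgeR's quasi-likelihood test with Benjamini-Hochberg adjustment). Igf2bp3, an RNA-binding protein known to bind the Igf2 messenger RNA, had 193 and 97.8 CPM in KO, against 42.9, 39.8, 40.9 and 10.5 CPM in WT. The KO libraries were above all WT libraries, and WT 4, the WT library with least H19 and Igf2, also had the least Igf2bp3. Its log2 fold change of 2.49 (SE 0.697) was called by a narrow margin (adjusted p = 0.0482 by the same edgeR test) and not when WT 1, WT 2 or WT 3 was left out (log2 2.59, 2.55 and 2.56), and it was 4.19 without KO 2 and 1.24 without WT 4.

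Downstream of the receptors, Foxo1, the transcription factor that insulin and IGF signalling keeps out of the nucleus, rose to 88.4 and 190.1 CPM in KO, against 44.2, 44.9, 44.9 and 40.7 CPM in WT (log2 1.72, SE 0.204, adjusted p = 0.00409 by edgeR's quasi-likelihood test). Its log2 fold change was 2.11 without KO 1 and 1.11 without KO 2. Irs2, an adaptor of the insulin and IGF receptors, had 20.7 and 19.8 CPM in KO, against 7.68 to 9.36 CPM in WT (log2 1.23, SE 0.147). The signalling receptor Igf1r, named after its values were seen, was not called, with 166 and 123 CPM in KO and 125 to 144 CPM in WT (log2 0.05, SE 0.150). Igf1 had no more than 2 counts in any library.

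Of 19 listed genes that write, read or erase the methylation behind imprints, 16 were tested, 2 were called higher, 2 lower and 12 not called (25% called, against 30.7% of all genes tested). Tet1, which oxidises methylcytosine, had 29.6 and 59.7 CPM in KO, against 78.7 to 88.6 CPM in WT (log2 -0.88, SE 0.199). The de novo methyltransferase Dnmt3b had 68.6 and 38.7 CPM in KO, against 83.3 to 92.4 CPM in WT (log2 -0.83, SE 0.170). Dnmt3a (log2 0.26, SE 0.062) and Smchd1, a chromatin protein of imprinted clusters (0.35, SE 0.084), were slightly higher in KO. All 4 missed the threshold when WT 1, WT 2 or WT 3 was left out, with adjusted p-values from 0.0676 to 0.125 by edgeR's quasi-likelihood test. Without KO 2 the log2 fold change was -1.42 for Tet1 and -0.44 for Dnmt3b, and without KO 1 it was -0.53 for Tet1.

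Cdkn1c belongs to the CIP/KIP inhibitors of cyclin-dependent kinases, and 8 of 9 related inhibitors and pocket proteins were tested, with 4 called higher, 1 lower and 3 not called (62.5% called, against 30.7% of all genes tested). Cdkn2a, the locus of p16 and p19ARF, had 35.7 and 2.09 CPM in KO, against 0.0418 to 0.115 CPM in WT (log2 6.70, SE 0.851, adjusted p = 0.00498 by edgeR's quasi-likelihood test). Cdkn1a (p21) fell to 22.6 and 12.4 CPM in KO, against 76.1 to 81.2 CPM in WT (log2 -2.28, SE 0.226, adjusted p = 0.00236 by the same edgeR test). Cdkn2d had 78.8 and 85.5 CPM in KO, against 28.8 to 31.9 CPM in WT (log2 1.47), and Cdkn2c 33.1 and 55.7 CPM in KO, against 20.9 to 22.8 CPM in WT (log2 1.05). Cdkn2c was not called without WT 1 or WT 2 (log2 1.04 and 1.05) and was at 0.58 without KO 2. For Cdkn2a the log2 fold change was 8.89 without KO 2 and 4.89 without WT 4, and for Cdkn1a it was -1.80 without KO 2 and -2.68 without WT 4.

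Of 13 G protein subunits and cyclic AMP signalling genes listed with Gnas, all tested, 4 were called higher, 1 lower and 8 not called (38.5% called, against 30.7% of all genes tested). Gnaq, the α subunit that couples receptors to phospholipase C, fell to 0.716 and 3.43 CPM in KO, against 36.4, 34.3, 40.5 and 35.2 CPM in WT (log2 -4.18, SE 0.494, adjusted p = 0.00402 by edgeR's quasi-likelihood test). Adcy3, an adenylyl cyclase (log2 0.67, SE 0.081), Prkaca, the catalytic subunit of protein kinase A (0.36, SE 0.067), and Gnai2, an inhibitory α subunit (0.32, SE 0.063), were higher in KO. Without KO 2 the log2 fold change of Gnaq was -5.62. Prkaca and Gnai2 were not called when WT 1, WT 2 or WT 3 was left out (log2 0.31 to 0.37).

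The genes whose level over the 6 libraries was most like that of H19, by Pearson's r of log2 CPM over all tested genes, were Timmdc1 and Scamp1 (r = 0.999 each) and Agap1, Ybx1 and Ybx3 (r = 0.998 each). This is a description over 6 libraries that share the split between genotypes and the low value of WT 4. Ybx3, a cold shock domain protein, had 168 and 109 CPM in KO, against 425, 398, 428 and 349 CPM in WT, and its close relative Ybx1 had 831 and 750 CPM in KO, against 1061, 1060, 1057 and 1007 CPM in WT. In all 5 genes WT 4 was the lowest WT library and KO 2 the lower KO library, as for H19, but over a much narrower range. Igf2 was under the minimum of 5 CPM in both group means, so no such genes are named for it.

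Markers of other thymic cells differed between the genotypes too. Of 10 mesenchyme markers 2 were tested, and the list summed to 780 and 227 CPM in KO, against 62.4 to 67.6 CPM in WT; nearly all of it was Pdgfrb (773 and 226 CPM in KO, 61.5 to 66.4 CPM in WT). Col3a1, Dcn, Lum and Pdgfra were at 0 in every library. Thymic epithelium markers summed to 46.1 and 53.1 CPM in KO, against 148 to 160 CPM in WT, nearly all Epcam, with Krt5, Krt14 and Foxn1 at 0. The part of these cells in the levels of H19, Igf2 and the other growth genes was not tested. In bulk RNA, fewer cells with a transcript and less of it in each cell cannot be told apart.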

How the data were processed

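RNA was amplified with a SMART-Seq v4 kit (no strand information) and read as paired ends, per the labels' protocols. The authors counted reads per Entrez gene with featureCounts on mm10, per the submitters' processing notes, and deposited the counts without scaling. The sources used here do not give the aligner, versions or strand setting. The series table and the 6 single-library tables hold equal values. RefSeq (GRCm38.p6) gave symbols to 25275 of 26332 identifiers.

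The test was that of edgeR 4.0.16 in R 4.3.3: filterByExpr by genotype (minimum count 10), TMM scaling, and a quasi-likelihood F-test with sex as a term, leaving 3 residual degrees of freedom. CPM are counts scaled after TMM, and RPKM also divide by the deposited gene length. An SE is the log2 fold change over the root of F. The genes and lists were chosen with earlier results of these data known. Named were the 10 growth genes, Tcf7, up to 4 genes a list (called, at least 5 CPM in the higher mean, largest change) and the 5 genes most like H19; others are marked. Alternatives were RLE factors, no filter, no sex term, DESeq2 1.42.0, limma-voom (limma 3.58.1), a replicate block and leaving out each library. A model with the product of genotype and sex left 2 residual degrees of freedom. With 2 against 4 libraries no exact permutation test can go below 0.0667, so none was used. Intervals and floors of 3 counts cover counting error only. Replicate numbers shared by KO and WT only name mice: their deviations correlated at -0.11 and 0.033. The code was tested on simulated data.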

Additional observations from a re-analysis of the deposited data

Results flagged for a closer look

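Of the 48 genes named, 6 had a single WT library far from the other 3, judged by its gap to the nearest library divided by the whole WT range in CPM; chance alone gives about 1 such library in 20 groups. In 5 of the 6 it was WT 4; one of these, Ybx1, was named for following H19 over the libraries, WT 4 included. The ratio was 0.859 for H19, 0.904 for Igf2bp3, 0.927 for Ybx1 and 0.837 for Cd81, in which WT 4 was the lowest, and 0.965 for Igfbp4, in which WT 4 was the highest. For Tspan32 it was 0.862, with WT 2 the highest.

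The difference between KO and WT itself differed between males (KO 1 against WT 4) and females (KO 2 against WT 1 to WT 3) for 28 of the 45 named genes tested, by the interaction term of edgeR's quasi-likelihood test, as it did for 7274 of all 13294 genes (54.7%). The residual spread in that model came from the WT females alone, so the spread between KO mice is not in it, and a difference between sexes cannot be told apart from a difference between single mice. Among the growth genes, the log2 difference in males minus that in females was 4.27 for H19, 0.62 for Igf2r, -3.82 for Dlk1 and -5.60 for Grb10. Igf2, Cdkn1c and Gnas did not pass that test. Among other imprinted genes and neighbours of H19 it was 0.59 for Cd81, -1.01 for Osbpl5, 0.59 for Tssc4, -0.36 for H13, -0.33 for Copg2, -6.81 for Phactr2, 0.29 for Lsp1 and -0.25 for Ctsd. In the IGF axis it was 0.80 for Igfbp4, 2.96 for Igf2bp3 and -0.97 for Foxo1. Among methylation genes it was -0.87 for Tet1, 0.69 for Dnmt3b and -0.29 for Smchd1. For cell cycle inhibitors it was 4.00 for Cdkn2a, 0.90 for Cdkn1a and -0.76 for Cdkn2c, and for Gnaq it was -2.18. It was 0.28 for Tcf7, and for the genes most like H19 it was 0.34 for Timmdc1, 0.69 for Scamp1, 1.32 for Agap1, 0.22 for Ybx1 and 0.87 for Ybx3.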

How the results depend on the processing

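Of 43 named genes called by edgeR's test, 13 were called under all 14 alternatives and 30 were not called under at least 1. Among the 13 were Igf2r, Dlk1, Tspan32, Cd81, Slc22a3 and Igfbp4. The runs without KO 1, without KO 2 and, with sex in the model, without WT 4 rest on a single KO library. They hold no spread between KO mice, so a call kept there says little. RLE factors, no sex term, no low-count filter and DESeq2 gave 4059, 3970, 3877 and 5261 calls over all genes, against 4076, with 5 growth genes called each time; without the filter the median log2 fold change of all genes was -0.12. H13 was not called with RLE factors (log2 -0.34). limma-voom with weights per genotype gave 1500 calls, 4 among the growth genes and 4 among the other imprinted genes. Leaving out each library gave 1665 to 9473 calls over all genes. It gave 4 to 7 among the growth genes and 8 to 31 among the other imprinted genes. The lowest numbers came without WT 1. The highest number in each of these ranges came from a run with a single KO library. With no spread between KO mice, the numbers of such runs cannot be set against those of the other runs. Runs without WT 1, WT 2 or WT 3 kept both KO libraries and gave 1665, 1714 and 1743 calls, against 4076. The cause of that fall was not tested. Alternatives added after seeing the data gave 8918 calls without KO 2 and the sex term, and 2722 without WT 4 and the sex term. Grb10 turned to -2.37 without KO 2, and to -2.62 without KO 2 and the sex term; leaving out single libraries its log2 fold change lay between -2.37 and 3.27. The interaction was called for 7299 genes with RLE factors and 7489 without the filter.

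With the replicate number as a block in place of sex, 748 genes were called, 2 growth genes (both higher) and 3 other imprinted genes. The numbers pair no mice, so this is no paired analysis. The KO libraries are 2, of unequal depth and 1 of each sex, and low transcripts (Cdkn1c, Grb10, Plagl1, Meg3) rest on few counts.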
